A study of Rattus norvegicus with 12 samples.

Results

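Chemokines and their receptors were followed in the mesenteric lymph nodes of rat pups that had or had not received conjugated linoleic acid (CLA) early in life. The genes described are those on the array whose symbol starts with Ccl, Cxcl, Cx3cl, Xcl, Ccr, Cxcr, Cx3cr, Xcr or Ackr followed by a number, except for 1 receptor that the rule leaves out. They are 45 of the 14217 genes with a probe set of their own, namely 29 ligands, 12 receptors and 4 atypical receptors. Each gene is given by its brightest probe set, the one with the highest mean over the 12 arrays, and 8 of the 45 genes had several. All animals were Wistar rats, with 3 pups in each group and 1 array for each pup. In group A the dams ate a diet with 1% CLA in the last 2 weeks of gestation and throughout suckling, so that the pups took CLA from milk. In group B the dams ate that diet in those weeks of gestation only, and the pups were given CLA by gavage every day of suckling. Group C had the gavage in suckling alone and was born to dams on the standard diet. The dams of group D ate the standard diet throughout, and their pups had no CLA. Groups A and B thus had 5 weeks of CLA, group C had 3 and group D had 0. The CLA supplied was a mix of 80% c9,t11 and 20% t10,c12 isomers. In pup plasma, the paper reports a larger share of t10,c12 in group A than in groups B and C. The routes differ between the groups as well as the durations, and the litters of the pups are not given in the sources used here, so p-values measure the spread between these 12 animals.

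Chemokines are small secreted proteins that draw cells along gradients by binding receptors coupled to G proteins. In a lymph node, Ccl19 and Ccl21 from stromal cells hold T cells and dendritic cells in the T cell zone, Cxcl13 from follicular stromal cells draws B cells into follicles through Cxcr5, and Cxcl12 retains cells through Cxcr4. Inflammatory chemokines are made on demand by macrophages, dendritic cells and stroma and bring in monocytes, neutrophils and effector T cells. Atypical receptors bind chemokines without G protein signalling and scavenge or transport them.

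Values are log2 signals after quantile normalization, a scale that serves to compare 1 probe set between arrays and not different genes with each other. Of the 45 genes, 36 were above background on all 12 arrays, where the background of an array was read from 27 probe sets of spikes left out of the samples and lay at 2.33 to 3.20. Because whole nodes were measured, fewer cells of a type and less RNA per cell cannot be told apart. B and T cell markers and the stromal and endothelial markers of a lymph node were above background on every array. Group D replicate 3 stood apart from its group: across probe sets it correlated on average at r = 0.931 with B pups, 0.930 with C pups and 0.896 with its own 2 groupmates. In 29 of the 45 genes its level lay nearer to the mean of groups B and C than to that of group D replicates 1 and 2. The share of all genes for which this held is not given, so the count does not set the 45 genes apart. Those 2 arrays also carried more smooth muscle RNA (mean of 9 marker genes 9.78 and 9.87) than group D replicate 3 (7.12) and the arrays of the other groups (6.25 to 7.32). After the values of group D replicate 3 were seen, comparisons with group D were therefore also run without it. Those results are given where the call of a member's brightest probe set changed. Without that array the control consists of the 2 animals with the most smooth muscle RNA, and the shared estimate of the spread changes as well. The part of that RNA in the comparisons without group D replicate 3 was not tested.

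Against group D, 3 of the 45 genes fell in group A (6.67%, against 12% of all genes) and 5 rose (11.1%, against 16% of all genes). The 3 that fell were Cxcl13, Ccl2 and Cxcl9, and the 5 that rose were Cxcl12, Cxcr4, Ccl3, Ccl9 and Cx3cl1. Without group D replicate 3 the calls of Cxcl9 and Cx3cl1 were lost and the others stood. Both shares were below those of all genes, and the median log2 difference of the 45 genes, 0.21, lay near that of all genes, 0.15. No member was called in group B against group D, where 0.0141% of all genes were called lower and 0.00703% higher, although at an unadjusted p under 0.05 by limma 6 were lower (13.3%, against 10.5% of all genes) and 1 higher (2.22%, against 6.47%). No member was called in group C against group D either, where 0.0352% of all genes were called lower and 0.00703% higher, and at an unadjusted p under 0.05 there were 9 lower (20%, against 12.2% of all genes) and 2 higher (4.44%, against 7.42%). Set against group D, the 45 genes had a median of -0.20 in group B, beside -0.11 for all genes, and of -0.35 in group C, beside -0.12 for all genes.

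Group A set against groups B and C together gave 2 genes that fell (4.44%, against 16.9% of all genes) and 12 that rose (26.7%, against 31.6% of all genes). Cxcl13 and Ccr2 fell, and Cxcl16, Ccl9, Cx3cl1, Cxcl12, Cxcl2, Cxcr4, Ackr1, Ccl3, Cxcr3, Ccl5, Ccl22 and Cxcr5 rose, Cxcr5 on its brighter probe set only. The median difference of the 45 genes was 0.38, beside 0.32 for all genes. This is a test of whether the difference of group A from group D differs from that of groups B and C, since group D cancels out of it. Between groups B and C, 0% of all genes were called in either direction and no member was, while at an unadjusted p under 0.05 by limma 3 members were lower in group B (6.67%, against 1.93% of all genes) and 2 higher (4.44%, against 1.96%).

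**Figure D1:**
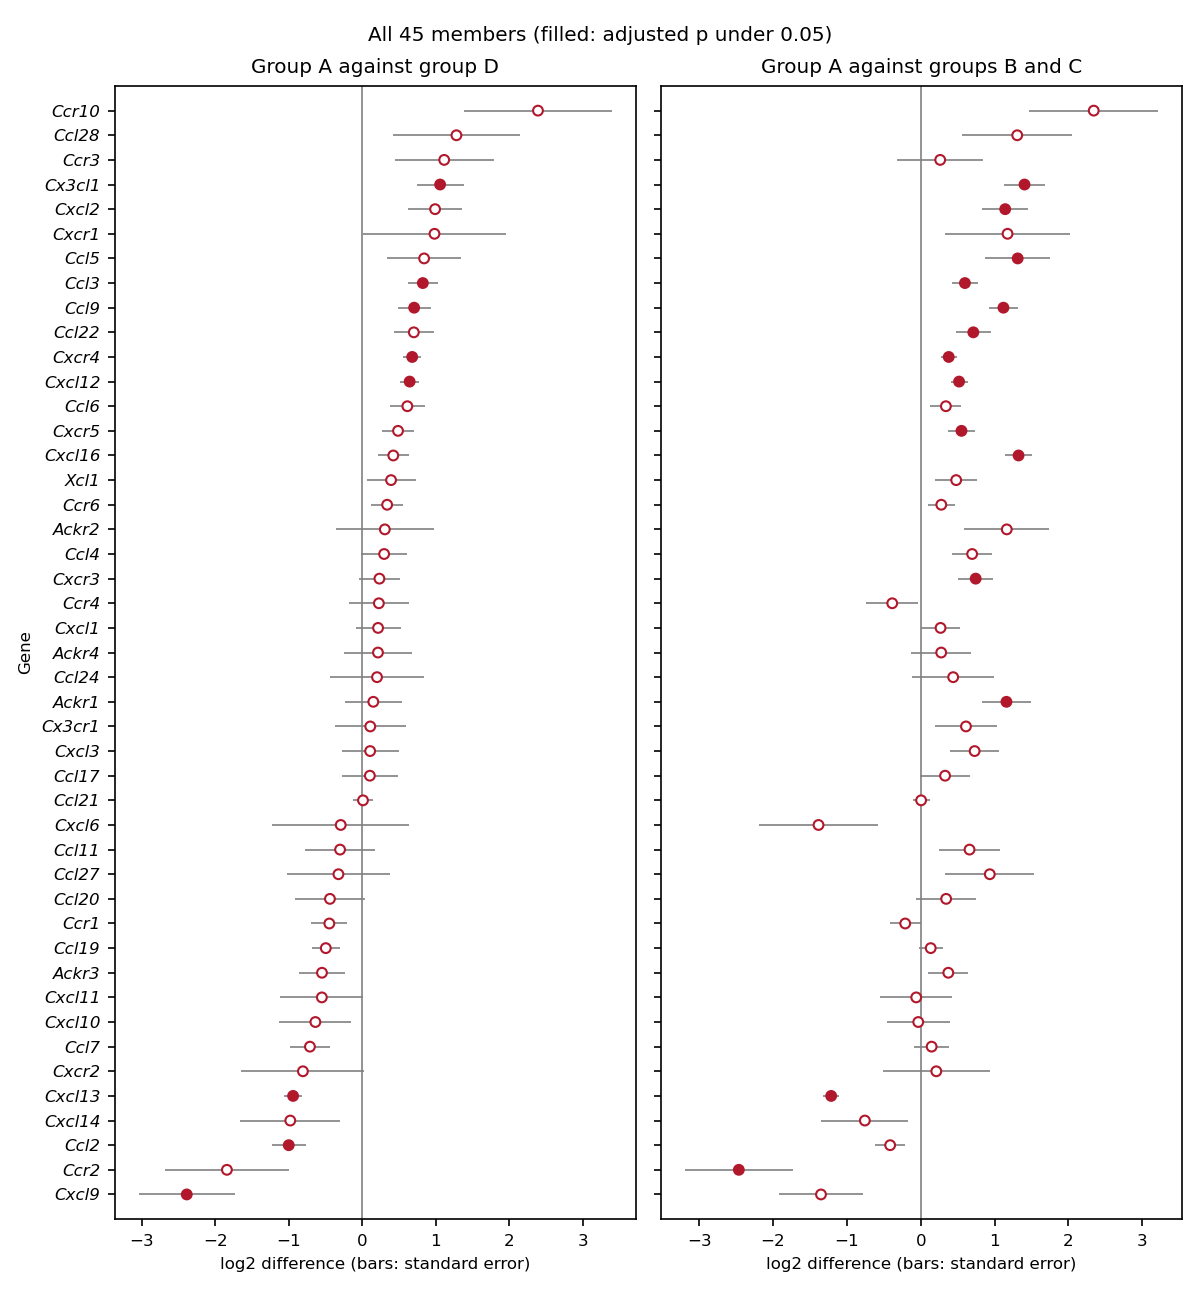
The log2 difference of each of the 45 genes with its standard error, in group A against group D on the left and against groups B and C on the right, ordered by the left panel. Filled points mark the 3 genes called lower and 5 called higher on the left and the 2 called lower and 12 called higher on the right.

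Ccl21, Ccl19, Cxcl13, Cxcl12 and Cxcr4 had the brightest probe sets among the 45 genes. Ccl21, the main ligand of the T cell zone, measured 12.21, 11.76 and 11.93 in A pups, 11.95, 11.82 and 11.88 in B pups, 12.03, 11.94 and 12.15 in C pups, against 12.01, 11.74 and 12.12 in D pups. All 4 groups overlapped, and the difference of group A from group D was 0.01 (adjusted p = 0.974). Its partner Ccl19, which draws on the same receptor, measured 10.63, 10.70 and 10.39 in A pups, 10.90, 10.27 and 10.48 in B pups, 10.55, 10.35 and 10.07 in C pups, against 11.28, 11.19 and 10.73 in D pups. Every array of groups A and C lay below every array of group D, but the adjusted p was 0.0827 in group A (log2 difference -0.50), 0.232 in group B (-0.52) and 0.148 in group C (-0.74). Without group D replicate 3 the differences of Ccl19 were -0.66 (adjusted p = 0.0191) for group A, -0.69 (adjusted p = 0.0196) for group B and -0.91 (adjusted p = 0.00374) for group C, all past the threshold.

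Cxcl13, the follicular attractant of B cells, was the member with the smallest adjusted p and was low in all 3 pups of group A. Its signal was 9.77, 9.58 and 9.34 in A pups, 10.67, 10.60 and 10.92 in B pups, 10.90, 10.84 and 10.74 in C pups, against 10.60, 10.44 and 10.47 in D pups. The arrays of group A lay below all 9 others, group B overlapped with group D, and group C lay above it. Cxcl13 was 1.92-fold lower in group A than in group D (log2 difference -0.94 ± 0.12 SE, adjusted p = 0.000242) and 2.32-fold lower than in groups B and C (log2 difference -1.21 ± 0.11 SE, adjusted p = 4.78e-06). In group C the difference from group D was 0.32 (adjusted p = 0.218), with no overlap of the arrays and no call. On the deposited signals without normalization, the difference from groups B and C was -0.49 and was no longer past the threshold. The median difference of all probe sets in that comparison was 0.49. Cxcr5, the receptor of Cxcl13 on B cells and follicular helper T cells, cannot be given a direction. Its brighter probe set measured 7.84, 7.52 and 7.42 in A pups, 7.25, 7.05 and 7.27 in B pups, 6.97, 7.25 and 6.45 in C pups, against 7.37, 7.22 and 6.73 in D pups, and it rose against groups B and C (log2 difference 0.55 ± 0.19 SE, adjusted p = 0.0331). The other probe set of Cxcr5 measured 5.81, 5.23 and 5.35 in A pups, 6.14, 6.22 and 6.38 in B pups, 6.39, 6.26 and 5.69 in C pups, against 6.04, 5.69 and 5.59 in D pups, and it was called in the opposite direction (log2 difference -0.72 ± 0.20 SE, adjusted p = 0.0126).

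B cell markers were called in both directions in group A. Of the 5 measured of 7 B cell markers, 1 was lower and 1 higher in group A against group D, and 2 were lower and 1 higher against groups B and C. Cr2, the complement receptor of B cells and follicular dendritic cells, had a difference of -2.13 from groups B and C, Ms4a1, which encodes CD20, one of -0.83, and Blk, a kinase of B cells, one of 0.78. The mean of the 5 markers was 8.35 to 8.55 among A pups, 9.0 to 9.06 among B pups, 8.87 to 9.14 among C pups and 8.27 to 8.86 among D pups, and none was within background on all arrays. Their part in the change of Cxcl13 was not tested.

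Cxcl12 and its receptor Cxcr4, which retain B cells, plasma cells and progenitors in their niches, rose in group A, Cxcl12 on 2 of its 3 probe sets. The brightest probe set of Cxcl12 measured 10.60, 10.75 and 10.68 in A pups, 10.29, 10.42 and 10.11 in B pups, 10.23, 10.15 and 9.72 in C pups, against 10.11, 10.02 and 9.95 in D pups. Its arrays of group A were above all 9 others, 1.56-fold higher than group D (log2 difference 0.65 ± 0.13 SE, adjusted p = 0.00436) and 1.43-fold higher than groups B and C (log2 difference 0.52 ± 0.11 SE, adjusted p = 0.0031). A further probe set of Cxcl12 gave 0.77 (adjusted p = 0.00106) against group D, while the dimmest one gave -0.36 (adjusted p = 0.627), so the probe sets disagree. That last probe set was also the one in which group D replicate 3 (6.74) lay far under group D replicates 1 and 2 (8.67 and 8.36), and without group D replicate 3 it was called lower in group A at -0.95 (adjusted p = 0.0344), so that the direction of Cxcl12 depends on the probe set. Cxcr4 measured 9.76, 9.99 and 10.02 in A pups, 9.55, 9.31 and 9.62 in B pups, 9.42, 9.65 and 9.72 in C pups, against 9.10, 9.25 and 9.38 in D pups. Here too the 3 arrays of group A were the highest of the 12, 1.6-fold above group D (log2 difference 0.68 ± 0.13 SE, adjusted p = 0.00222) and 1.3-fold above groups B and C (log2 difference 0.38 ± 0.11 SE, adjusted p = 0.0143). The other probe sets of Cxcr4 gave 0.71 (adjusted p = 0.00447) and 0.43 (adjusted p = 0.0422) against group D, the same direction in all of them. In group C the difference of Cxcr4 from group D was 0.35 (adjusted p = 0.194), and 0.42 (adjusted p = 0.0367) without group D replicate 3. On the deposited signals the differences of Cxcl12 and Cxcr4 in group A from group D were 0.61 and 0.68 and were not called. Of 10 stromal markers, 2 were lower and 2 higher in group A against group D, and 1 was lower and 6 higher against groups B and C; their mean was 9.40 to 9.47 among A pups, 8.98 to 9.23 among B pups, 8.99 to 9.15 among C pups and 9.12 to 9.91 among D pups. Their part in the rise of Cxcl12 was not tested.

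**Figure D2:**
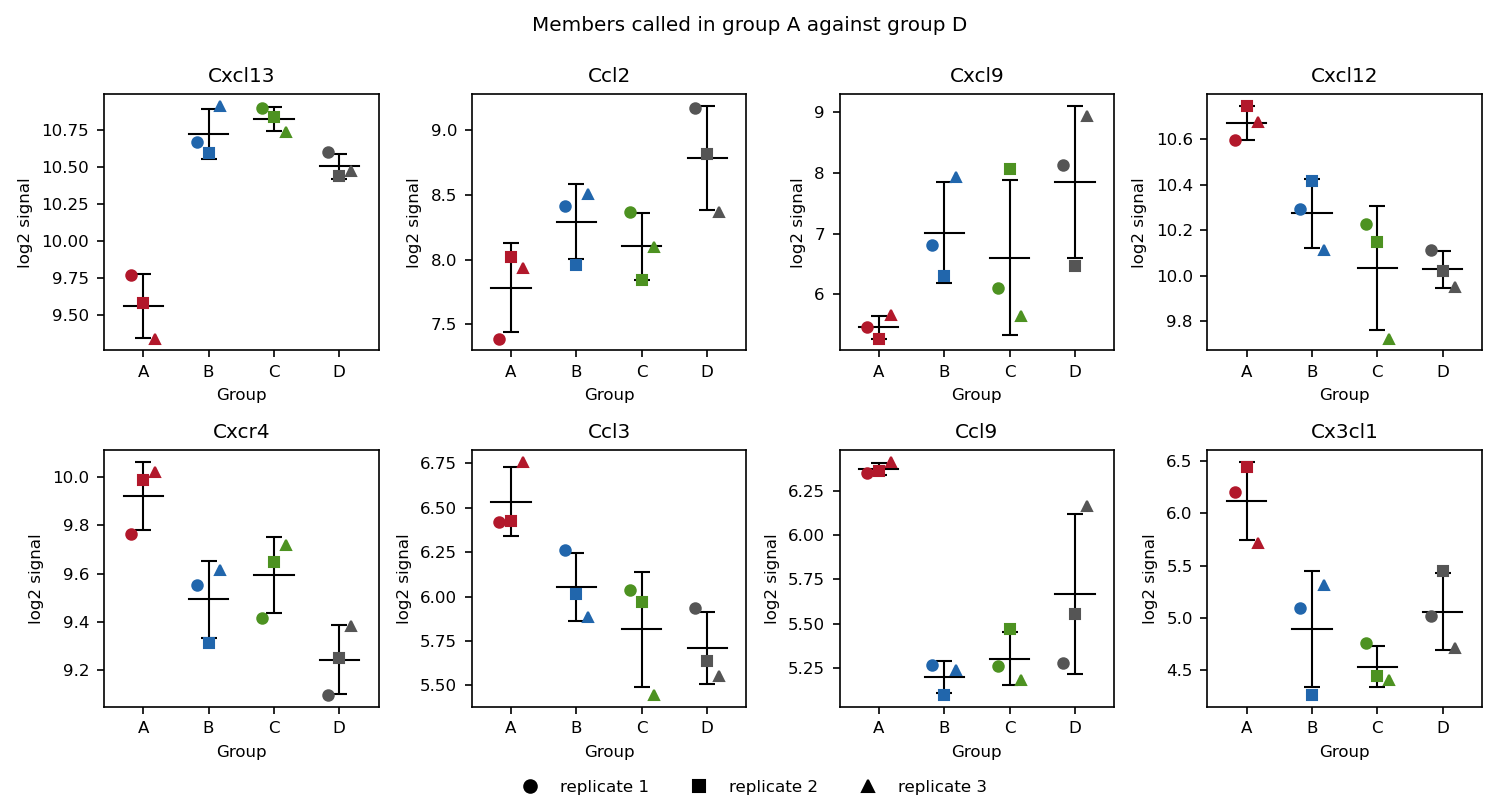
The log2 signal of the 8 genes called in group A against group D, with 1 point for each pup (the marker gives the replicate number), a line at the group mean and bars of 1 SD (n = 3). Cxcl13, Ccl2 and Cxcl9 lie lower in group A and the other genes higher, with no overlap between groups A and D in any of the 8.

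Cxcl9 had the largest fall of the called genes in group A against group D. Cxcl9, Cxcl10 and Cxcl11 are the ligands of Cxcr3, the receptor of effector T cells, and are induced by interferon gamma. Cxcl9 measured 5.46, 5.27 and 5.65 in A pups, 6.81, 6.31 and 7.93 in B pups, 6.11, 8.06 and 5.65 in C pups, against 8.14, 6.47 and 8.94 in D pups. Group A was low and even, while the other groups spread widely, from 5.65 to 8.06 in group C and from 6.47 to 8.94 in group D. It was 5.24-fold lower in group A than in group D (log2 difference -2.39 ± 0.65 SE, adjusted p = 0.0212). The second probe set of Cxcl9 gave -3.04 (adjusted p = 0.00627) against group D and -2.02 (adjusted p = 0.0138) against groups B and C, where the brighter one gave -1.35 (adjusted p = 0.0815). The call of the brighter probe set was lost without group A replicate 1 or 2 and without group D replicate 1 or 3, and without group D replicate 3 the difference was -1.85 (adjusted p = 0.0657). Cxcl10 measured 6.12, 5.69 and 5.97 in A pups, 6.36, 4.94 and 6.76 in B pups, 6.41, 5.95 and 5.33 in C pups, against 7.44, 5.61 and 6.65 in D pups. Its difference of -0.64 (adjusted p = 0.42) in group A was within the spread of group D. Cxcl11 measured 4.71, 4.66 and 4.77 in A pups, 4.95, 3.98 and 5.92 in B pups, 4.47, 5.51 and 3.81 in C pups, against 5.39, 4.25 and 6.15 in D pups, again with overlapping groups (-0.55, adjusted p = 0.569 in group A against group D). Replicate 3 of group B, replicate 2 of group C and replicates 1 and 3 of group D held the highest values of Cxcl9 and Cxcl11 in their groups. Cxcr3 itself measured 7.01, 6.86 and 6.90 in A pups, 6.41, 5.99 and 6.53 in B pups, 5.69, 6.77 and 5.67 in C pups, against 7.01, 6.36 and 6.69 in D pups. It was 1.68-fold higher in group A than in groups B and C (log2 difference 0.74 ± 0.24 SE, adjusted p = 0.0268) and was not called against group D (0.23, adjusted p = 0.628). The call of Cxcr3 was lost in 6 of the 12 fits that left out 1 array.

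**Figure D3:**
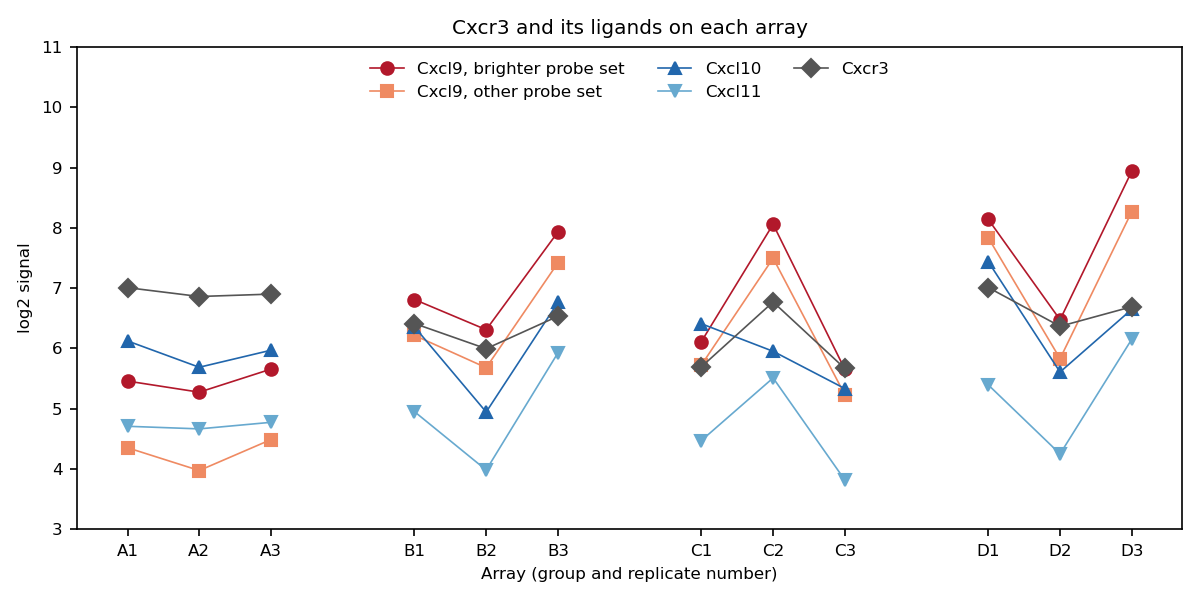
The log2 signal of Cxcr3, of both Cxcl9 probe sets, of Cxcl10 and of Cxcl11 on each of the 12 arrays, with lines joining the arrays of a group only to guide the eye. The brighter Cxcl9 probe set lies at 5.27 to 5.65 in group A and at 6.47 to 8.94 in group D, while Cxcr3 lies at 6.86 to 7.01 in group A.

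Other genes induced by interferon did not move one way. Of the 10 measured of 12 listed, 2 fell and 1 rose in group A against group D: Gbp2, a guanylate-binding protein (-1.82), Mx1, an antiviral GTPase (-1.42), and Irf7, a transcription factor of the type I interferon response (1.09). Against groups B and C, 3 were lower and 3 higher, with Gbp2 and Mx1 again among the lower ones (-1.51 and -1.74).

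The stretches of sequence before Cxcl9, Cxcl10 and Cxcl11 and before 6 further members whose values are given here are shown because they hold a match to a search motif. The motif is a loose form of the start of an element that NF-kappa-B, the main transcription factor of inflammatory chemokine genes, can bind. The letters searched were GGGNNNTTC on both strands, within the 250 bases before the start of the gene. RefSeq promoter sequences of rat assembly GRCr8 matched 35 of the 45 genes. The motif stood before 19 of those 35 (54.3%), against 11.9% of all 27457 promoters in the table. The gamma-activated site TTCNNNGAA, which STAT dimers can bind, stood before 4 (11.4%, against 7.52%), and the interferon-stimulated core GAAANNGAA before 3 (8.57%, against 7.99%). Each line gives the motif nearest to the start in capitals, read 5′ to 3′ on the strand of the gene, with up to 20 bases on each side, and a match on the opposite strand appears as GAANNNCCC.
Cxcl9 promoter (chr14:16007028-16007076, plus strand): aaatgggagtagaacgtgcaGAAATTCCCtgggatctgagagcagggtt
Cxcl10 promoter (chr14:15988920-15988968, plus strand): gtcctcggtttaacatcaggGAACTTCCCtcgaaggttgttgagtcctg
Cxcl11 promoter (chr14:15973634-15973682, plus strand): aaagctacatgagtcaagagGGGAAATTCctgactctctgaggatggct
Cxcl2 promoter (chr14:17467281-17467329, minus strand): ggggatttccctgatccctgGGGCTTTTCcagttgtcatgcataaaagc
Cxcl16 promoter (chr10:55670045-55670093, minus strand): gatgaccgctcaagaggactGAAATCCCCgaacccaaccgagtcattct
Ccl7 promoter (chr10:67514017-67514065, plus strand): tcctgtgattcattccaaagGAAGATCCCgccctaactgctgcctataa
Ccl9 promoter (chr10:68868954-68869002, minus strand): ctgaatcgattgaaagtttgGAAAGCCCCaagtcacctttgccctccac
Cxcr3 promoter (chrX:70886945-70886991, minus strand): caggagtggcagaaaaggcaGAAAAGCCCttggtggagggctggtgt
Cxcr4 promoter (chr13:42634486-42634534, minus strand): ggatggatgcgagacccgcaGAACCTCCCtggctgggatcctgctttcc
Matches on both strands can overlap, as they do before Cxcl10. The motif in capitals begins 118 bases before the start of Cxcl9, 126 before Cxcl10, 74 before Cxcl11, 54 before Cxcl2 and 58 before Ccl7. Cxcl2 has a further match that begins 74 bases before its start and opens its line in lower case. Genes that hold it fell (Cxcl9), rose (Cxcl2, Cxcl16, Ccl9, Cxcr3, Cxcr4) or were not called (Cxcl10, Cxcl11, Ccl7) in the comparisons of group A, and Cxcl13, Cxcl12 and Cx3cl1 have no match of these letters in the window. A match is only a likeness of letters and was not set against binding.

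On the monocyte axis Ccl2 fell in group A against group D and Ccr2 against groups B and C. Ccl2, which brings monocytes out of the bone marrow, measured 7.39, 8.02 and 7.94 in A pups, 8.41, 7.96 and 8.51 in B pups, 8.36, 7.84 and 8.10 in C pups, against 9.17, 8.82 and 8.37 in D pups. All arrays of groups A and C lay below those of group D. It was 2-fold lower in group A (log2 difference -1.0 ± 0.23 SE, adjusted p = 0.0085), and this call held in every alternative run. The difference was -0.49 (adjusted p = 0.324) for group B and -0.68 (adjusted p = 0.186) for group C, and with group D replicate 3 left out these became -0.70 (adjusted p = 0.0465) and -0.89 (adjusted p = 0.0135). Ccl7, a further ligand of Ccr2, measured 6.36, 6.53 and 6.09 in A pups, 6.56, 6.16 and 6.67 in B pups, 5.96, 5.90 and 5.81 in C pups, against 7.64, 7.11 and 6.36 in D pups. Among the members above background and at an unadjusted p under 0.05 it had the largest difference of group C from group D (log2 difference -1.15 ± 0.27 SE, adjusted p = 0.131), with no overlap. Without group D replicate 3 the differences of Ccl7 were -1.05 (adjusted p = 0.00314) for group A, -0.91 (adjusted p = 0.00882) for group B and -1.48 (adjusted p = 0.000385) for group C. Ccr2, the receptor of monocytes, measured 0.00, 2.67 and 1.03 in A pups, 3.71, 4.21 and 3.02 in B pups, 3.67, 3.70 and 3.87 in C pups, against 3.64, 4.51 and 1.08 in D pups. Group A lay within background on all 3 arrays, so Ccr2 was at least 1.78-fold lower there than in groups B and C (log2 difference -2.46 ± 0.73 SE, adjusted p = 0.0178). The call was lost without group A replicate 1 or 3 and with a floor of 32, under which the values of both sides fall together. In group D, replicate 3 (1.08) was as low as group A and the other arrays (3.64 and 4.51) were as high as groups B and C. The difference of Ccr2 in group A from group D was -1.84 (adjusted p = 0.155), and -2.84 (adjusted p = 0.0137) without group D replicate 3.

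The inflammatory ligands Ccl3 and Ccl9 rose in group A against group D and against groups B and C, and Ccl5 against groups B and C only. Ccl3, a ligand of Ccr1 from macrophages and T cells, measured 6.42, 6.43 and 6.76 in A pups, 6.26, 6.01 and 5.89 in B pups, 6.04, 5.97 and 5.45 in C pups, against 5.94, 5.64 and 5.56 in D pups. It was 1.77-fold higher than in group D (log2 difference 0.83 ± 0.21 SE, adjusted p = 0.0136) and 1.51-fold higher than in groups B and C (log2 difference 0.60 ± 0.18 SE, adjusted p = 0.0186), with no overlap. Both calls of Ccl3 were lost without group A replicate 3. Ccl9, a ligand of Ccr1 in rodents, measured 6.35, 6.36 and 6.41 in A pups, 5.27, 5.10 and 5.24 in B pups, 5.26, 5.47 and 5.18 in C pups, against 5.28, 5.56 and 6.16 in D pups. The arrays of group A lay above all 9 others, 2.17-fold above groups B and C (log2 difference 1.12 ± 0.20 SE, adjusted p = 0.000639). Against group D (log2 difference 0.71 ± 0.23 SE, adjusted p = 0.0428) the call stood near the threshold and was lost under most alternatives, with group D replicate 3 at 6.16 and the other 2 arrays at 5.28 and 5.56. Without group D replicate 3 the difference was 0.95 (adjusted p = 0.00316). Ccl5, made by T cells and natural killer cells, measured 7.56, 8.50 and 7.98 in A pups, 6.60, 6.85 and 7.58 in B pups, 6.09, 7.17 and 5.88 in C pups, against 8.47, 6.22 and 6.82 in D pups. It was 2.49-fold higher in group A than in groups B and C (log2 difference 1.31 ± 0.44 SE, adjusted p = 0.0315), but 1 array of group B (7.58) exceeded 1 of group A (7.56), and the call was lost in 6 of the 12 fits that left out 1 array. The difference of Ccl5 from group D, whose replicate 1 was at 8.47, was 0.84 (adjusted p = 0.287) and was not called. Ccl4, a close relative of Ccl3, did not pass (0.30, adjusted p = 0.585 against group D and 0.70, adjusted p = 0.065, against groups B and C). Ccl6, whose rodent product acts on Ccr1, had 0.61 (adjusted p = 0.0963) for group A and 0.56 (adjusted p = 0.292) for group B against group D, and 0.85 (adjusted p = 0.0161) and 0.80 (adjusted p = 0.0273) without group D replicate 3. Ccr1, the receptor shared by several of these ligands, had -0.45 (adjusted p = 0.235) and -0.21 (adjusted p = 0.486). Of 10 macrophage and dendritic cell markers, 1 was lower and 3 higher in group A in either comparison (Cd68, a lysosomal protein of macrophages, 0.95 against group D, and Lyz2, lysozyme, -0.51). Their mean was 7.87 to 8.14 among A pups, 7.55 to 7.77 among B pups, 7.43 to 7.55 among C pups and 7.67 to 8.29 among D pups, none was within background on all arrays, and their part in these results was not tested.

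Cxcl2, a neutrophil attractant, was higher in group A than in the gavage groups. It measured 4.91, 5.43 and 5.36 in A pups, 4.54, 4.44 and 4.63 in B pups, 3.90, 3.07 and 3.95 in C pups, against 4.53, 4.58 and 3.62 in D pups. The 3 arrays of group A were the highest of the 12, 2.21-fold above groups B and C (log2 difference 1.14 ± 0.31 SE, adjusted p = 0.0116), and group B lay above group C without overlap (0.90, adjusted p = 1). The call was lost without group A replicate 2 or 3. The difference of group A from group D was 0.99 (adjusted p = 0.0739). The related ligands Cxcl1 (0.27, adjusted p = 0.476 against groups B and C) and Cxcl3 (0.73, adjusted p = 0.111) were not called, and Cxcl6 was above background on 3 arrays only. The receptors of these ligands, Cxcr1 and Cxcr2, were above background on 9 and 6 arrays and were not called. Of 6 neutrophil markers, 4 were higher in group A, both against group D and against groups B and C. The mean of the 6 was 4.89 to 5.37 among A pups, 3.70 to 4.03 among B pups, 3.48 to 4.46 among C pups and 3.30 to 3.36 among D pups. In group B, replicate 3 had both the highest marker mean (4.03) and the highest Cxcl2 (4.63) of its group. Group C replicate 2 had the highest marker mean of its group (4.46) and the lowest Cxcl2 of the 12 arrays (3.07). None of the 6 was within background on all arrays, and their part in the rise of Cxcl2 was not tested.

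Cxcl16 was higher in group A than in groups B and C. This ligand is made as a membrane protein by macrophages, dendritic cells and endothelium, and holds cells that carry Cxcr6. Its signal was 8.62, 8.64 and 8.55 in A pups, 7.17, 6.62 and 7.34 in B pups, 7.72, 7.65 and 7.17 in C pups, against 8.48, 8.21 and 7.86 in D pups. The order was group A, then group D, then groups B and C, and neither B nor C overlapped with D. Cxcl16 was 2.51-fold higher in group A than in groups B and C (log2 difference 1.33 ± 0.18 SE, adjusted p = 0.000111), a call that held in every alternative run. Against group D it was 0.42 (adjusted p = 0.185) for group A, -1.14 (adjusted p = 0.0946) for group B and -0.67 (adjusted p = 0.176) for group C. Without group D replicate 3 the last 2 differences were -1.30 (adjusted p = 0.00103) and -0.83 (adjusted p = 0.0134). Cx3cl1, the other chemokine with a membrane-bound form, measured 6.20, 6.44 and 5.72 in A pups, 5.09, 4.26 and 5.32 in B pups, 4.76, 4.44 and 4.40 in C pups, against 5.02, 5.44 and 4.71 in D pups. It was 2.09-fold higher in group A than in group D (log2 difference 1.06 ± 0.32 SE, adjusted p = 0.0339) and 2.65-fold higher than in groups B and C (log2 difference 1.41 ± 0.28 SE, adjusted p = 0.00151), with no overlap on either side. The call against group D was lost without group A replicate 1 or 2 or group D replicate 1 or 3, and was 0.89 (adjusted p = 0.0804) without the last. Its receptor Cx3cr1, of monocytes and cytotoxic cells, had 0.11 (adjusted p = 0.915) and 0.61 (adjusted p = 0.29) in the same comparisons.

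**Figure D4:**
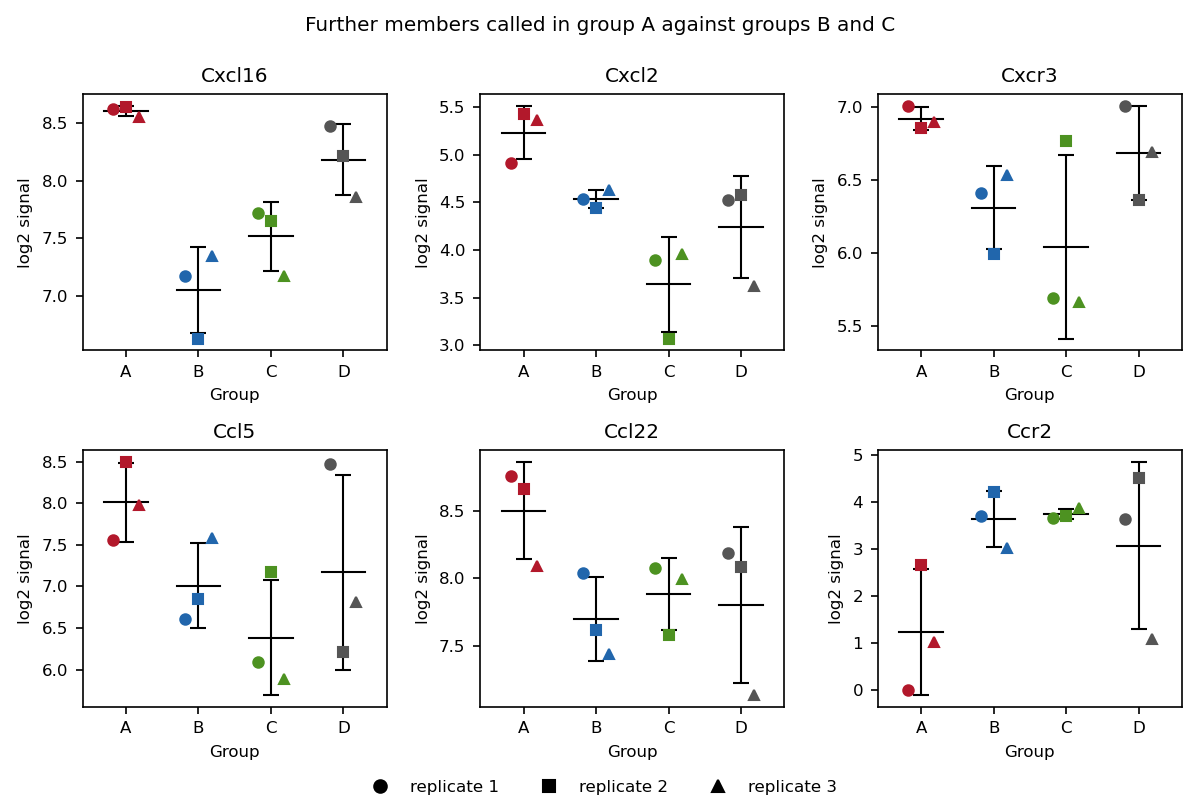
The log2 signal of 6 further genes called between group A and the pair of groups B and C, with 1 point for each pup, a line at the group mean and bars of 1 SD (n = 3). Cxcl16 and Cxcl2 are highest in group A with no overlap, Ccl5 overlaps with group B, and Ccr2 lies within background on all arrays of group A and on group D replicate 3 (1.08).

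Ccl17, a dendritic cell ligand of Ccr4, was lower on all arrays of group B than on any of group C. It measured 8.26, 7.94 and 7.85 in A pups, 7.19, 6.71 and 6.92 in B pups, 8.47, 8.30 and 8.53 in C pups, against 8.72, 8.36 and 6.66 in D pups. The 3 arrays of group B lay below those of groups A and C and below group D replicates 1 and 2, while group D replicate 3 (6.66) was lower still. The difference of group B from group C was -1.49 (adjusted p = 0.668) and from group D -0.97 (adjusted p = 0.261). Without group D replicate 3, which enters the shared estimate of the spread, these were -1.49 (adjusted p = 0.00187) and -1.60 (adjusted p = 7.38e-05). The difference of group A from group D was 0.10 (adjusted p = 0.897) with all arrays and -0.52 (adjusted p = 0.0428) without group D replicate 3. Ccl22, the other ligand of Ccr4, measured 8.76, 8.66 and 8.09 in A pups, 8.04, 7.62 and 7.44 in B pups, 8.08, 7.58 and 8.0 in C pups, against 8.19, 8.09 and 7.13 in D pups on its brighter probe set. It was 1.64-fold higher in group A than in groups B and C (log2 difference 0.71 ± 0.24 SE, adjusted p = 0.0316), but its other probe set gave 0.07 (adjusted p = 0.844), and the call was lost in 5 of the 12 fits that left out 1 array. Ccr4, carried by regulatory and helper T cells, was not called in any comparison (0.80, adjusted p = 0.334 in group C against group D).

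The mucosal and barrier ligands passed no adjusted test with all 12 arrays. Ccl20, which draws Ccr6 cells to gut epithelium and Peyer's patches, measured 5.16, 5.57 and 5.53 in A pups, 5.71, 5.71 and 4.63 in B pups, 3.55, 5.01 and 5.84 in C pups, against 5.96, 5.86 and 5.76 in D pups. Group C, with 1 array at 3.55, overlapped with group D (log2 difference -1.06 ± 0.47 SE, adjusted p = 0.268). Its receptor Ccr6 had 0.34 (adjusted p = 0.315) in group A against group D. Ccl11, an eosinophil attractant through Ccr3, measured 4.15, 5.48 and 4.78 in A pups, 3.82, 4.28 and 4.72 in B pups, 3.62, 3.77 and 4.64 in C pups, against 5.21, 5.87 and 4.23 in D pups. The difference of group C from group D was -1.10 (adjusted p = 0.263), and -1.53 (adjusted p = 0.0363) without group D replicate 3. Ccl24, also a ligand of Ccr3, spread over 4.59 to 7.97 in group D alone, and Ccr3 was above background on 7 arrays. Ccl27, a skin ligand of Ccr10, measured 3.40, 4.09 and 3.77 in A pups, 0.23, 1.51 and 3.74 in B pups, 4.04, 3.80 and 3.61 in C pups, against 3.74, 4.17 and 4.33 in D pups. Group B had 2 arrays within background and was not called against group D (log2 difference -2.25 ± 0.70 SE, adjusted p = 0.211). Ccr10, the receptor of plasma cells that move to mucosa, was above background on 7 arrays, among them all 3 of group A at 3.82 to 5.05 (2.39, adjusted p = 0.121 against group D and 2.34, adjusted p = 0.0518, against groups B and C). Its mucosal ligand Ccl28 was above background on 3 arrays only. Xcl1, a T cell and natural killer cell product that attracts cross-presenting dendritic cells, had 0.39 (adjusted p = 0.474) in group A against group D.

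The atypical receptors were high in group D replicates 1 and 2 and low in group D replicate 3. Ackr1, which carries chemokines across venular endothelium, measured 6.29, 6.32 and 6.91 in A pups, 5.48, 5.48 and 5.22 in B pups, 5.51, 4.87 and 5.49 in C pups, against 6.92, 6.90 and 5.25 in D pups. Group A was 2.24-fold higher than groups B and C without overlap (log2 difference 1.16 ± 0.33 SE, adjusted p = 0.0148), and that call was lost without group A replicate 3. Ackr2, a scavenger of inflammatory CC chemokines on lymphatic endothelium, measured 5.93, 5.32 and 5.76 in A pups, 4.52, 4.35 and 4.92 in B pups, 4.54, 4.07 and 4.61 in C pups, against 6.62, 6.27 and 3.19 in D pups. Ackr3, which takes up Cxcl12, measured 7.31, 7.14 and 7.11 in A pups, 6.58, 6.96 and 7.24 in B pups, 6.35, 6.76 and 7.0 in C pups, against 8.11, 8.26 and 6.84 in D pups. In both, group D replicates 1 and 2 were the highest of the 12 arrays, while group D replicate 3 was the lowest for Ackr2 and within the range of groups B and C for Ackr3. The dimmer probe set of Ackr2 measured 4.98, 4.77 and 3.69 in A pups, 4.64, 4.16 and 4.91 in B pups, 4.32, 3.15 and 3.79 in C pups, against 4.99, 5.44 and 4.17 in D pups, with group D replicate 3 not the lowest. Ackr4, the scavenger of Ccl19 and Ccl21 on lymphatic endothelium, measured 7.52, 7.63 and 7.62 in A pups, 7.12, 7.47 and 7.30 in B pups, 7.32, 6.97 and 7.71 in C pups, against 8.10, 8.20 and 5.84 in D pups. None of the 4 was called against group D with all arrays, the adjusted p running from 0.174 to 0.975.

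Without group D replicate 3 the brightest probe sets of all 4 atypical receptors were lower in groups B and C than in group D. That array was low on these probe sets and was left out after its values were seen. The p-values that follow therefore describe the 2 remaining controls and are no independent test. In group B the differences were -1.51 (adjusted p = 0.00119) for Ackr1, -1.85 (adjusted p = 0.000915) for Ackr2, -1.26 (adjusted p = 0.00126) for Ackr3 and -0.85 (adjusted p = 0.00607) for Ackr4. In group C they were -1.61 (adjusted p = 0.000701), -2.04 (adjusted p = 0.000423), -1.48 (adjusted p = 0.000389) and -0.82 (adjusted p = 0.00714) in the same order. The dimmer probe set of Ackr2 gave -0.64 (adjusted p = 0.401) in group B, which was not called, and -1.46 (adjusted p = 0.0449) in group C. Group A had -1.0 (adjusted p = 0.00429) for Ackr3 and -0.56 (adjusted p = 0.0431) for Ackr4, while Ackr1 (-0.40, adjusted p = 0.29) and Ackr2 (-0.78, adjusted p = 0.0731) were not called. Against these 2 animals, 9 members were called lower and 1 higher in group B (12.8% and 7.15% of all genes), 9 lower and 1 higher in group C (15% and 8.04%), and 8 lower and 5 higher in group A (13.4% and 14.6%). The smooth muscle list was higher in the same 2 animals, with 5 of 9 genes called lower in group A against group D in the fit of all arrays and 0 of 9 in groups B and C, where all 9 were lower at an unadjusted p under 0.05. The mesothelial list had 3 of its 5 measured genes lower in group A and 1 in each of groups B and C, with a mean of 4.49 to 4.87 among A pups, 4.24 to 4.88 among B pups, 3.72 to 4.85 among C pups and 6.52, 6.77 and 5.57 among D pups. No gene of either list was within background on all arrays, and their part in the levels of the atypical receptors was not tested. Cxcl14, an epithelial and fibroblast ligand, showed the same division on its second probe set, at 4.35, 4.97 and 0.00 in group D and between 0.00 and 1.05 in the other groups, whereas its brighter probe set was above background on 6 arrays and did not separate them.

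**Figure D5:**
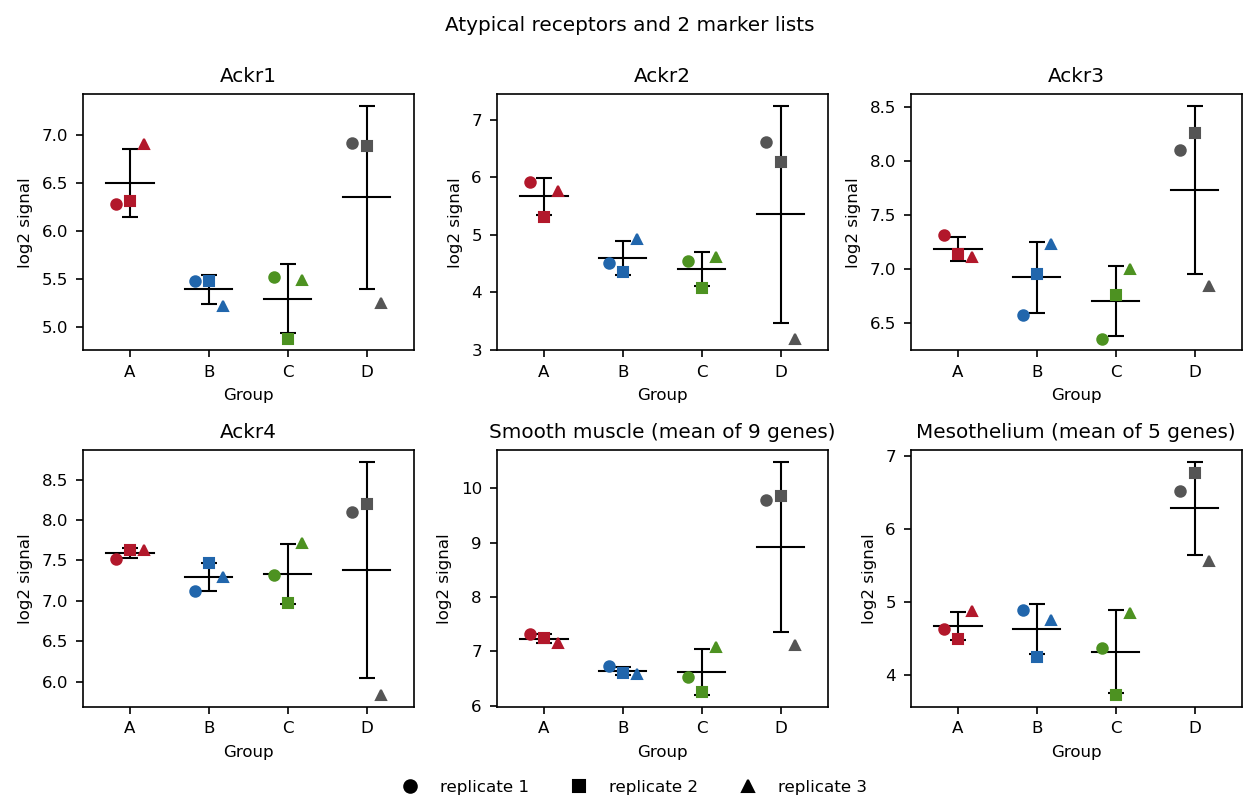
The log2 signal of Ackr1 to Ackr4 and the mean log2 signal of the smooth muscle and mesothelium markers, with 1 point for each pup, a line at the group mean and bars of 1 SD (n = 3). Group D replicate 3, the triangle, lies apart from the other 2 arrays of group D in all 6 panels, at 3.19 against 6.62 and 6.27 for Ackr2.

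Genes that carry the signal of chemokine receptors changed in both directions in group A. Of the 29 measured of 35 listed, 6 fell and 10 rose against group D, and 6 fell and 14 rose against groups B and C, while none was called between the other groups. Of all genes, 12% fell and 16% rose against group D, and 16.9% fell and 31.6% rose against groups B and C. The same shares of all genes apply to the other gene lists in these 2 comparisons of group A. The genes named next were chosen after their values were seen. Those that rose against group D included Gnai2, the inhibitory G protein subunit on which these receptors act (0.70), Gng2 (0.71), another G protein subunit, Rac2, the GTPase of leukocyte movement (0.60), and Grk2 and Grk6, kinases that switch receptors off (0.64 and 0.59). Among those that fell were Rgs1 and Rgs2, which shorten G protein signals (-1.41 and -1.25), and Jak2, a kinase of cytokine receptors (-2.28). Of 6 chemokine-like genes outside the rule, 2 rose in group A against group D, namely Pf4, a platelet chemokine (1.01), and Cklf, a small chemotactic protein (1.21), and 5 rose against groups B and C. As a sign of RNA quality, the 3′ to 5′ signal ratio of the hexokinase probe sets was 2.84 to 4.96 among A pups, 1.62 to 3.24 among B pups, 1.82 to 2.62 among C pups and 1.84 to 2.53 among D pups. Every A pup thus lay above every C and D pup, while groups A and B overlapped. The same ratio of the GAPDH probe sets was 1.21 to 1.53 among A pups, 1.10 to 1.12 among B pups, 1.10 to 1.28 among C pups and 1.06 to 1.22 among D pups. By this ratio every A pup lay above every B pup, and group A overlapped with groups C and D. That of the actin probe sets was 1.37 to 1.79 among A pups, 1.44 to 1.79 among B pups, 1.60 to 1.74 among C pups and 1.30 to 1.91 among D pups, with all groups overlapping. The part of RNA quality in the differences of group A was not tested.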

How the data were processed

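RNA from the mesenteric nodes of 12 pups was hybridised to Affymetrix Rat Genome 230 2.0 arrays, 1 per pup. The authors deposited 1 linear signal intensity per probe set and array, computed with MAS5 per the submitters' processing notes. No further scaling was found in the file, whose array medians were 19.3 to 38.5. Of its 31099 probe sets, 57 controls were left out. The log2 values were quantile normalized, with 30 zeros set to the smallest positive value and a floor of 1. Groups were compared with limma 3.58.1 in R 4.3.3 (1 mean per group, all 12 arrays, variance trend, two-sided), adjusted by Benjamini-Hochberg over the 31042 probe sets. With 3 arrays against 3 the smallest exact permutation p is 0.1, and the number of arrays limits the precision. Symbols came from the platform annotation. Where a group lay within background, a fold is written as at least the ratio to that background. Members described array by array were those at an adjusted p under 0.05, the 3 largest differences in groups B and C against group D at an unadjusted p under 0.05, and the 5 brightest, together with Cxcl10, Cxcl11, Ackr2, Ackr3 and Ackr4, which were added after their values were seen. The members, the gene lists, the motifs and this rule were chosen with earlier results of these data known. The script was tested on simulated data. The 3 search motifs were read in RefSeq promoters of GRCr8. Alternatives covered scaling, floor, filter, variance model, samples fitted, probe set, the replicate block and leaving out each array.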

Additional observations from a re-analysis of the deposited data

Results flagged for a closer look

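For 8 members the difference from group D ran one way in group A and the other way in groups B and C, and the test of that difference (group A against groups B and C, 3 arrays against 6, limma) passed an adjusted p under 0.05. That test called 16.9% of all genes lower and 31.6% higher, and the share of all genes that meet the whole rule is not given. It does not show that either side differs from group D. With all 12 arrays, only Cx3cl1, Ccl9 and Cxcl13 among the 8 were called in group A against group D. No member was called in group B or C against group D. Ccl5 (1.31 on the log2 scale), Cxcl16 (1.33), Cx3cl1 (1.41), Ccl9 (1.12), Ackr1 (1.16) and Cxcr3 (0.74) were above group D in group A and below it in groups B and C. Cxcl13 (-1.21) and Ccr2 (-2.46) were below group D in group A and above it in groups B and C. The adjusted p-values were 0.0315 for Ccl5, 0.000111 for Cxcl16, 0.00151 for Cx3cl1, 0.000639 for Ccl9, 0.0148 for Ackr1, 0.0268 for Cxcr3, 4.78e-06 for Cxcl13 and 0.0178 for Ccr2. In all 3 arrays of group A the levels of Cxcl16, Cx3cl1 and Ccl9 were above those of all 6 arrays of groups B and C, and those of Cxcl13 and Ccr2 below, while Ccl5 overlapped. Some of these directions rest on group D replicate 3. Without it Ackr1 was below group D in group A too (-0.40), and Ccr2 was below group D in groups B and C too (-0.43 and -0.33), while the other 6 kept their directions. All 3 arrays of group A were within background for Ccr2, so that its difference from groups B and C is a bound, at least 1.78-fold lower in group A. Since the groups hold 3 arrays each, no array was tested for standing apart in a single gene.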

How the results depend on the processing

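Of 597 values of single members under alternatives, 496 kept direction and side of the threshold, 85 lost it, 13 passed it and 3 reversed. The 3 were Cxcl12 at -0.36 (group A against group D) and -0.076 (against groups B and C) and Cxcr5 at -0.72 (against groups B and C), each on another probe set, and the cause was not tested. On the deposited signals without normalization the median difference of all probe sets from group D was -0.12 for group A, -0.55 for group B and -0.70 for group C, beside 0.07, -0.04 and -0.04 after it. In group A against groups B and C the median was 0.49, beside 0.11 after normalization. With the deposited signals 0 members were called higher in group A against group D (1.84% of all genes), 1 lower in group B (0.499%), 18 lower in group C (40% of members and 35% of all genes), and 1 lower in group A against groups B and C (7.05%). In group A against groups B and C, 1 was also called lower with a floor of 32 and with the dimmest 40% of probe sets left out. Fitting only the groups compared gave 3 higher in group A against group D and 1 lower in group B against group C. An unadjusted p under 0.05 with a fold of 2 gave 2 higher in group A and 2 lower in group B, each against group D, 5 lower in group C against group D, 7 higher in group A against groups B and C, and 2 lower in group B against group C. Leaving out 1 array at a time, members called in group A against group D numbered 2 to 8 lower and 3 to 5 higher, in group B 0 to 9 lower and 0 to 1 higher, in group C 0 to 9 lower and 0 to 1 higher, in group A against groups B and C 1 to 3 lower and 6 to 14 higher, and in group B against group C 0 to 1 lower. The highest counts against group D and the call in group B against group C came without group D replicate 3. The 3 higher in group A against group D came without any 1 array of group A, the 6 without group A replicate 2 or 3. The fit without group D replicate 3 called 12.8% to 15% of all genes lower than group D and 7.15% to 14.6% higher. These ranges span groups A, B and C. Apart from that fit and the deposited signals, shares of all genes under the alternatives are not given. The counts under those alternatives therefore do not set the members apart from all genes.

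Equal replicate numbers did not pair the arrays: of 18 pairs between groups 0 had deviations correlated over 0.1 (r from -0.015 to 0.083), and 11 were closest to their own number. With the replicate block, 4 members were lower and 5 higher in group A against group D, 2 lower and 13 higher in group A against groups B and C, and Ccl9 lost its call against group D (adjusted p = 0.0526). The share of all genes called with the replicate block is not given, so its counts do not set the members apart either. The 3 arrays of a group limit what can be called, and levels near background, as of Ccr2, Ccl27 and Ccr10, have little precision.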
